A study of Mus musculus with 4 samples.

Results

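The 9 genes described here, Brca1, Brca2, Bard1, Rad51ap1, Rad51c, Rad54l, Blm, Xrcc2 and Rad50, encode proteins of homologous recombination. They were chosen by name, as genes of the repair pathway for the DNA double-strand breaks that doxorubicin makes, and every probe with one of these symbols was taken. They account for 9 of the 30872 gene symbols and 22 of the 45281 probes on an Illumina mouse whole-genome BeadChip, on which each probe is a DNA oligonucleotide of 50 bases carried by many beads. RNA came from mouse embryonic fibroblasts (MEFs) of strain FVB;129 grown in serum. According to the study's methods the cells carried loxP-flanked Rb alleles, were released from contact arrest and received doxorubicin, a topoisomerase II inhibitor, at a dose that does not kill them. Parental MEFs received a solution lacking TAT-Cre and medium alone. Rb-deleted MEFs received TAT-Cre, a cell-permeable recombinase that removes the floxed part of Rb1, and medium alone. WT Rb-HA MEFs received TAT-Cre and a retrovirus for HA-tagged wild type Rb, and ΔCdk Rb-HA MEFs received TAT-Cre and a retrovirus for phospho-mutant Rb, whose Cdk acceptor sites were changed. Each TAT-Cre, control or virus treatment was given 2 times for 1 h, 3 h apart. The question of the design is how far Rb loss, and its replacement with Rb that can or cannot be phosphorylated by Cdks, moves transcript levels during a DNA damage response.

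Each condition had 1 array, so no difference below has a replicate check, no p-value was computed, and effects of the treatments cannot be told apart from differences between single cultures. Values on several arrays are given in the order parental, Rb-deleted, WT Rb-HA, ΔCdk Rb-HA, the last 3 being the TAT-Cre arrays. The retroviral Rb restores the protein from a viral promoter in a population of infected cells. As bulk RNA was measured, fewer cells of a type and less RNA per cell cannot be told apart.

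Homologous recombination repairs a double-strand break by copying an intact sister chromatid, and it is therefore used in S and G2 phase. The MRN complex, which contains Rad50, senses and trims the ends, BRCA1 with its partner BARD1 favours resection, BRCA2, RAD51C and XRCC2 prepare the single-stranded DNA for the search, RAD54 and RAD51AP1 help it invade the intact duplex, and the BLM helicase takes the joined molecules apart. Many of these genes are transcribed mostly as cells enter S phase, when the E2F factors that Rb restrains are active.

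The part of each transcript that was read decides what could be seen, so the first 30 bases of the 8 probes that the values below turn on are shown as the array annotation writes them, with the position of the probe in its transcript.
Rad50, position 4942: gtgccatctgcagatttgttgggtgtcacc
Blm, position 4584: cttctcctaacagttctctgcgcatagatc
Blm, position 4202: gatcccgctcggcctcatgtgcttctcagg
Rad51c, position 1844: gtggaaagctgaccttatgttacctatctg
Xrcc2, position 2831: gctccggctgccctcctagttgcaggcatt
Rad54l, position 2800: accttcgtcttccaccagcgttctcatgag
Brca2, position 10267: ggcgacagcagtgagaaattagctgttgag
Rad51ap1, position 796: tcaggatctccatctttaccccaggcagtt

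Of the 22 probes, 3, 7, 7 and 9 were detected on the 4 arrays in that order, where detected means a detection p-value below 0.01 against the negative control beads. Only 7 of the 9 genes therefore had a value. Brca1 and Bard1 had none: the Brca1 probe at position 133 read 43.6, 46.8, 49.0 and 47.6 intensity units on the 4 arrays, and the Bard1 probe at position 2250 read 47.0, 47.1, 44.9 and 47.6. These lie close to the median of all probes on each array, 44.7 to 46.4 units. The dimmest probes that counted as detected read 57.0, 53.8, 58.4 and 55.5 units on the same 4 arrays, and the undetected probes of the 9 genes lay between 32.4 and 54.8 units. Among the probes of Blm, Rad51c, Xrcc2, Rad54l and Rad50, the detected ones were those nearest the 3′ end of the transcript. In Brca2 the probe at 10267 was detected and one still further 3′, at 10366, was not. The Rad51ap1 probes at 794 and 796 share 48 bases, so that they read nearly the same stretch, each on its own beads. Levels of different probes depend on their own hybridisation and were not set against each other.

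**Figure D1:**
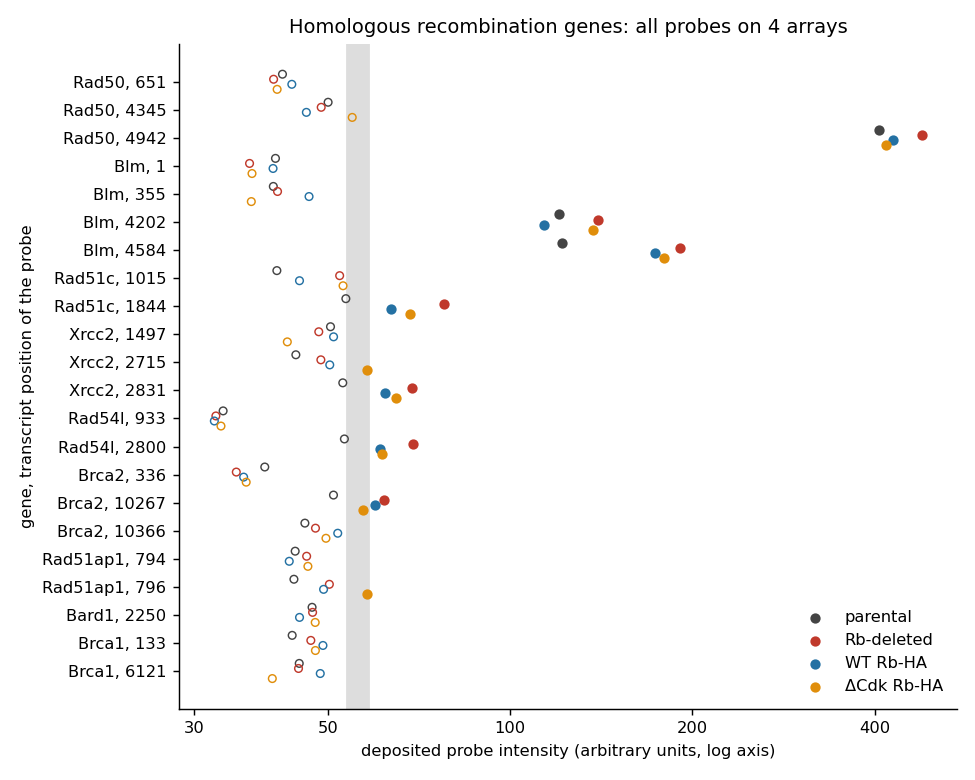
Deposited intensity of all 22 probes of the 9 genes on the 4 arrays (horizontal log axis, arbitrary units), 1 row per probe named by gene and position in the transcript. Filled points were detected, open points were not, and the grey band runs from the lowest to the highest detection limit of the arrays, 53.8 to 58.4 units. Only 1 Rad50 probe and 2 Blm probes stand clear of the band on every array, and both Brca1 probes and the Bard1 probe stay below it.

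The deletion and the sample type were checked first. Rb1, the deleted gene, read 543 units on the parental array and 160.5, 181 and 170.1 on the TAT-Cre arrays with the probe at position 4421, and 108, 56.7, 51.1 and 52.9 with the probe at 4002. Both probes were thus lower on every TAT-Cre array, the second below detection where retroviral Rb was given, and whether they lie in the deleted part or in the retroviral Rb is not given in the sources used here. All 12 fibroblast markers were detected on all 4 arrays, with summed intensities of 67343, 61928, 68440.3 and 60969.7 units. Their median log2 difference from parental was -0.15, -0.01 and -0.35 on the TAT-Cre arrays, against 0.02, 0.01 and -0.01 over all genes. In ΔCdk Rb-HA MEFs 8 of the 12 were lower than in parental MEFs, Postn by -1.26 and Col3a1 by -0.98 on the log2 scale, and 8 of the 12 were lower than in Rb-deleted MEFs, among them Pdgfrb by -0.95. In Rb-deleted MEFs, too, 8 of the 12 were lower than in parental MEFs, Col3a1 by -0.73. On both arrays the other 4 were higher than in parental MEFs, S100a4 by 0.41 with ΔCdk Rb-HA. In WT Rb-HA MEFs 6 of the 12 were lower than in parental MEFs and 6 higher, from -0.60 for Col3a1 to 0.39 for Dcn. With ΔCdk Rb-HA 10 of the 12 were lower than with WT Rb-HA and 2 higher. Fibroblast markers thus move with the comparisons below, and their part in them was not tested. Of 15 leukocyte markers 12 were detected, with Ptprc, Fcer1g and Lyz1 below detection. Their summed intensity was 11407 units on the parental array against 6132, 5649.7 and 7156 on the TAT-Cre arrays. There 10, 11 and 8 of the 12 were lower by more than 1.6-fold, where 2.98%, 2.46% and 3.3% of all genes were. These markers move with every comparison against parental MEFs below, though Cd53 was higher than parental with ΔCdk Rb-HA, by 0.39 on the log2 scale. With ΔCdk Rb-HA 6 of the 12 were above Rb-deleted MEFs, Cd53 by 1.42 and Lyz2 by 0.68, and 6 below. Against WT Rb-HA MEFs 9 were above, Cd53 by 1.00 and Lyz2 by 0.78, and 3 below. Leukocyte markers thus also move between the TAT-Cre arrays, and their part in the results was not tested. Only 1 of 6 endothelial markers and 4 of 6 epithelial markers on the array were detected on any array.

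In Rb-deleted MEFs, Blm, the helicase, rose 1.73-fold at 1 of its 2 detected probes and Rad51c, which acts before strand invasion, passed 1.6-fold over parental MEFs on the background-corrected scale, with a lower bound of 1.67-fold there and of 1.39-fold without the correction. Rad54l, Xrcc2, Brca2 and Rad50 read higher as well but did not pass 1.6-fold, the size the study used as its filter, and Rad51ap1 was not detected on either array. With WT Rb-HA no gene passed 1.6-fold against parental MEFs, and with ΔCdk Rb-HA only Blm did, at 1.65-fold. Counted over the genes with a value, 2 of 7 passed with Rb deleted, where 2.14% of all 12616 analysed genes were higher by that much, 0 of 7 with WT Rb-HA against 0.888%, and 1 of 7 with ΔCdk Rb-HA against 2.58%. By more than 2 bead standard errors, which cover only the spread between beads on an array, 6, 3 and 5 of the 7 genes were higher on the TAT-Cre arrays, where 26.6%, 23.6% and 26.1% of all genes were. Of the 7 genes, 5 were analysed although no probe was detected in parental MEFs, so they could hardly come out lower there, and these counts are no evidence about the gene set as a whole. All 3 comparisons share the parental array, so a low reading on that array would raise each of them.

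**Figure D2:**
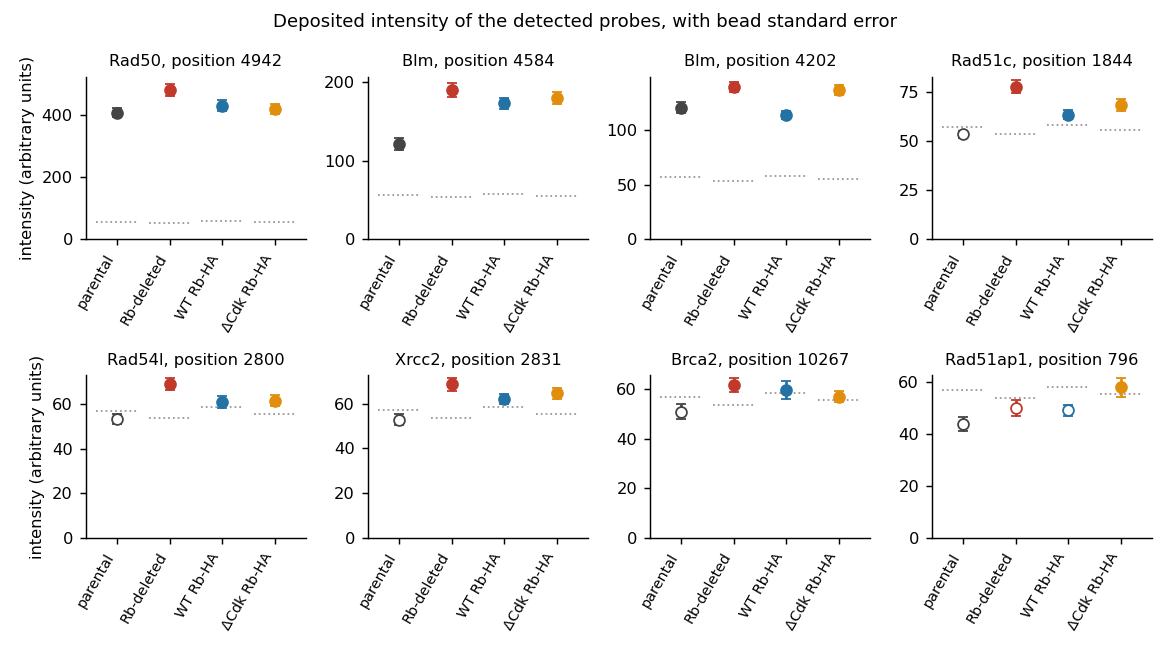
Deposited intensity (arbitrary units, linear axes from 0) of the 8 probes whose sequences are shown, 1 panel per probe and 1 point per array, with bars of 1 bead standard error and, dotted, the lowest intensity that counted as detected on that array. Filled points were detected and open points were not. Rad51c, Rad54l, Xrcc2 and Brca2 lay below the detection limit in parental MEFs and above it on the other 3 arrays, highest in Rb-deleted MEFs.

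Among the genes that act on the broken ends, Rad50 was the one with a value. Its gene lies on chromosome 11 from 53649519 to 53707319 in the mouse assembly GRCm38.p6, as do all gene positions below. Rad50 read 407, 479, 429 and 418 units on the 4 arrays, with bead standard errors of 13.9, 19.3, 17.7 and 15.7. The Rb-deleted array was the highest and the other 3 lay close together. After normalization the log2 difference from parental was 0.30 ± 0.08 (bead standard error, as for all log2 differences here) with Rb deleted, 0.13 ± 0.08 with WT Rb-HA and 0.14 ± 0.07 with ΔCdk Rb-HA. Only the first exceeded 2 bead standard errors. The other 2 Rad50 probes, at positions 651 and 4345, were not detected on any of the 4 arrays, so the value rests on 1 probe. Brca1 on chromosome 11 (101488761 to 101551955) and Bard1 on chromosome 1 (71027535 to 71103141), whose proteins form the ubiquitin ligase that acts at the same stage, gave no measurement in any condition.

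The genes that act on single-stranded DNA before strand invasion were near the detection limit. Rad51c (chromosome 11, 87376645 to 87404954), which forms complexes with XRCC2, read 53.5 ± 1.88 units in parental MEFs, which was not detected, and 77.7 ± 3.40, 63.5 ± 2.43 and 68.4 ± 2.99 on the TAT-Cre arrays. The order was Rb-deleted, then ΔCdk Rb-HA, then WT Rb-HA, with parental lowest, and ΔCdk Rb-HA was within 2 bead standard errors of WT Rb-HA. Against the parental detection limit, the lowest normalized value among detected probes there, these were at least 1.39-fold, 1.09-fold and 1.21-fold higher without background correction. The correction, which widens ratios between dim readings, put the same bounds at 1.67-fold, 1.16-fold and 1.36-fold. On the corrected scale, used for all log2 differences unless said otherwise, the fitted log2 differences were 0.89 ± 0.13, 0.37 ± 0.13 and 0.60 ± 0.13. A second Rad51c probe, at position 1015, read 41.1, 52.3, 44.8 and 52.9 units on the 4 arrays and was not detected on any of them.

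Xrcc2 (chromosome 5, 25689814 to 25705797), whose product works in a complex with RAD51C, followed the same order at position 2831. It read 52.9 ± 2.57 units in parental MEFs, undetected, and 68.7 ± 2.92, 62.0 ± 2.31 and 64.7 ± 2.43 on the TAT-Cre arrays. Without background correction these were at least 1.22-fold, 1.07-fold and 1.14-fold above the parental limit, and with it the bounds were 1.38-fold, 1.12-fold and 1.24-fold, with fitted log2 differences of 0.65 ± 0.15, 0.34 ± 0.15 and 0.49 ± 0.15. The neighbouring probe at position 2715 gave another order, reading 44.2, 48.6, 50.3 and 57.9 units, and was detected in ΔCdk Rb-HA MEFs alone. The probes thus disagree on which of the TAT-Cre arrays was highest.

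Brca2 (chromosome 5, 150522297 to 150570147), the breast cancer susceptibility gene that acts at the same step, read 51.0 ± 2.95 units in parental MEFs, undetected, then 61.9 ± 2.88 in Rb-deleted, 59.8 ± 3.67 in WT Rb-HA and 57.1 ± 2.14 in ΔCdk Rb-HA MEFs. The 3 TAT-Cre arrays lay within 2 bead standard errors of each other. Without background correction these were at least 1.1-fold, 1.03-fold and 1.00-fold above the parental limit, with it the bounds were 1.17-fold, 1.05-fold and 1.01-fold, and the fitted log2 differences were 0.50 ± 0.17, 0.34 ± 0.21 and 0.28 ± 0.17. The bounds take no account of bead error, and with cyclic loess as the normalization the ΔCdk Rb-HA reading had no bound. Neither of the other Brca2 probes was detected on any array.

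Of the genes that act in strand invasion, Rad54l (chromosome 4, 116094261 to 116123700), which encodes the RAD54 motor protein, read 53.2 ± 2.19 units in parental MEFs, undetected, and 68.9 ± 2.75, 60.9 ± 2.69 and 61.5 ± 2.54 on the TAT-Cre arrays. The Rb-deleted array was the highest and the arrays with retroviral Rb differed by less than 1 bead standard error. The bounds against parental were 1.22-fold, 1.05-fold and 1.08-fold without background correction and 1.38-fold, 1.08-fold and 1.14-fold with it, and the fitted log2 differences 0.64 ± 0.13, 0.28 ± 0.15 and 0.36 ± 0.14. Rad51ap1 (chromosome 6, 126923415 to 126939621), whose product promotes pairing of the strands, was detected in ΔCdk Rb-HA MEFs alone, at 58.0 ± 3.59 units. It read 43.9 ± 2.88, 50.2 ± 3.06 and 49.2 ± 2.22 units in parental, Rb-deleted and WT Rb-HA MEFs, none of them detected. The ΔCdk Rb-HA reading was at least 1.02-fold above the parental limit without background correction, against a bound of 1.04-fold with it. The overlapping probe at position 794 read 44.1, 46.1, 43.1 and 46.3 units on the 4 arrays and was not detected on any of them.

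Blm (chromosome 7, 80454993 to 80535148), the helicase that dissolves joint molecules with topoisomerase III, was detected on all 4 arrays with 2 probes. The probe at position 4584 read 122 ± 7.22 units in parental MEFs and 191 ± 8.74, 173 ± 7.17 and 179.6 ± 7.40 on the TAT-Cre arrays. Parental MEFs stood below the other 3, which lay within 2 bead standard errors of each other. The log2 differences from parental were 0.79 ± 0.13, 0.62 ± 0.12 and 0.73 ± 0.12, or 1.73-fold, 1.54-fold and 1.65-fold. The probe at position 4202 did not show this. It read 120.3 ± 5.10, 139.5 ± 4.38, 114 ± 3.57 and 137 ± 4.57 units on the 4 arrays, with WT Rb-HA lowest and next to parental. Its log2 differences from parental were 0.28 ± 0.09, -0.10 ± 0.10 and 0.27 ± 0.10. The rise of Blm past 1.6-fold therefore rests on 1 of 2 detected probes, and whether the probes read different transcript forms was not tested.

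The calls for Rad51c and Blm also depended on the background correction. Without it, the log2 difference between Rb-deleted and parental MEFs was 0.66 for Blm at position 4584 and 0.56 for Rad51c, both short of the 0.68 that corresponds to 1.6-fold. In ΔCdk Rb-HA MEFs the Blm difference was 0.61 without correction and 0.66 with the arrays scaled to their medians, again short of 1.6-fold.

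**Figure D3:**
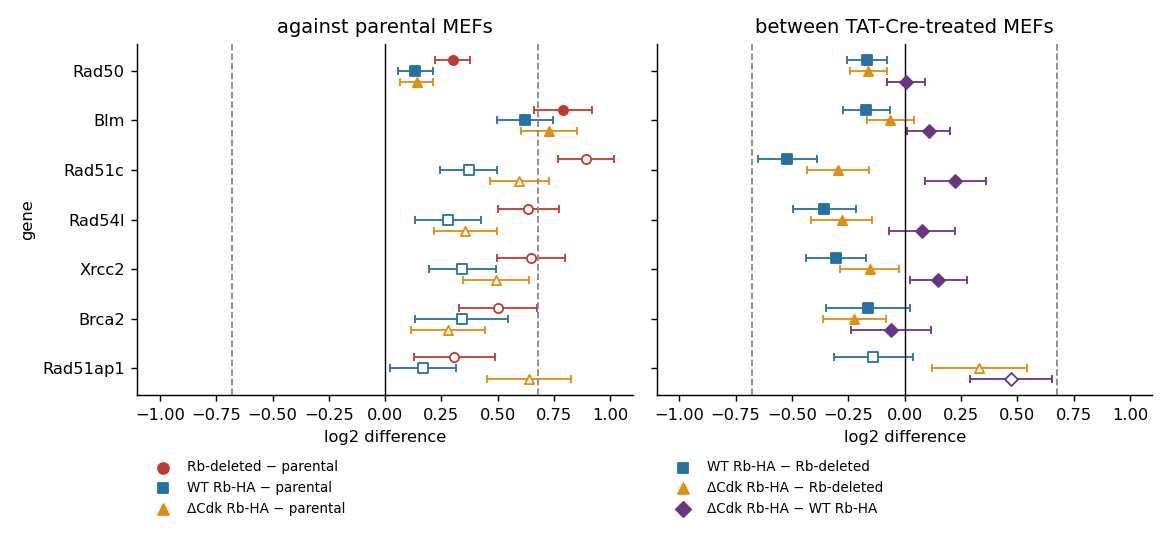
Normalized log2 differences (horizontal axis) of the 7 genes with a value, each by its brightest probe, with bars of 1 bead standard error, for the comparisons against parental MEFs (left) and between the TAT-Cre-treated MEFs (right). Dashed lines mark 1.6-fold, and open symbols mark comparisons in which the probe was not detected on 1 or both arrays. Only Blm and Rad51c pass the line, in Rb-deleted MEFs, and Blm in ΔCdk Rb-HA MEFs.

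Between the TAT-Cre-treated conditions no homologous recombination gene passed 1.6-fold. Rb-deleted MEFs received medium alone and no virus. Infection and the Rb that was put back therefore cannot be told apart in the comparisons against Rb-deleted MEFs. WT Rb-HA MEFs were below Rb-deleted MEFs for each of the 6 genes detected on both arrays, which excludes Rad51ap1. Over all genes the median log2 difference was also below 0, at -0.02, so the direction alone is not particular to these genes. The difference was greatest for Rad51c, at -0.52 ± 0.13 on the log2 scale, then Rad54l at -0.36 ± 0.14 and Xrcc2 at -0.30 ± 0.13, and these 3 of 7 exceeded 2 bead standard errors, where 18.8% of all genes were lower by that much. For Blm the probe at 4584 gave -0.17 ± 0.10 and the probe at 4202 gave -0.38 ± 0.08. Brca2 at -0.16 ± 0.18 and Rad50 at -0.17 ± 0.09, like Blm at 4584, were within 2 bead standard errors. None of the 7 was lower by 1.6-fold, against 0.484% of all genes. As the probes were detected on both arrays, this comparison does not turn on the parental detection limit.

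ΔCdk Rb-HA MEFs were below Rb-deleted MEFs for the same 6 genes, each by its brightest probe, where the median over all genes was -0.03. Rad51c differed by -0.30 ± 0.14 and Rad54l by -0.28 ± 0.13. These were 2 of 7 past 2 bead standard errors, close to the 27.1% of all genes that were lower. Of the 7, 0 passed 1.6-fold where 1.95% did. The undetected Rad51c probe at 1015 gave 0.01 ± 0.20, so the Rad51c difference rests on 1 probe. Rad51ap1 was higher in ΔCdk Rb-HA MEFs, where it was detected, by 0.33 ± 0.21, but its undetected probe at 794 gave -0.01 ± 0.14. The Xrcc2 probe at 2715, also detected in ΔCdk Rb-HA MEFs alone, was higher there than in Rb-deleted MEFs by 0.41 ± 0.20, with a bound of 1.07-fold without background correction, against -0.15 ± 0.13 for the probe at 2831. With the mean of its detected probes Xrcc2 differed by 0.13, so its place among the 6 rests on the probe taken. Set directly against WT Rb-HA MEFs, ΔCdk Rb-HA MEFs were higher by 0.22 ± 0.13 for Rad51c, 0.15 ± 0.13 for Xrcc2 and 0.08 ± 0.15 for Rad54l, and by 0.01 ± 0.08 for Rad50, all within 2 bead standard errors. Rad51ap1, at least 1.02-fold higher without background correction and with a bound of 1.03-fold with it, was the 1 gene of 7 with a fitted difference past 2 bead standard errors, where 17.6% of all genes were higher, and 0 of 7 passed 1.6-fold where 0.84% did. The overlapping Rad51ap1 probe at 794, undetected on every array, differed by 0.16 ± 0.12, within 2 bead standard errors. Blm differed by 0.11 ± 0.10 with the probe at 4584 and by 0.36 ± 0.09 with the probe at 4202. The Xrcc2 probe at 2715, detected with ΔCdk Rb-HA alone, gave 0.41 ± 0.20. Apart from Rad51ap1 and these second probes of Blm and Xrcc2, no detected probe separated the 2 forms of retroviral Rb by more than 2 bead standard errors.

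The promoters of these genes were read for letters of known cell cycle elements, since the conditions differ in Rb, which restrains E2F factors. RefSeq promoters of GRCm38.p6, from 250 bases before to 50 after a transcription start, were found for 7 of the 9 genes, with Rad50 and Xrcc2 missing. The E2F letters searched, on both strands, were TTTCCCGC, TTTGGCGC, TTTCGCGC and TTTGCCGC, and a match of the first on the other strand reads GCGGGAAA. They occurred in Brca2, Rad51c and Bard1, and in 2.26% of all 32851 promoters. The windows are shown 5′ to 3′ along the gene with the match in capitals, because Rad51c passed 1.6-fold after Rb deletion on the corrected scale while Bard1 gave no signal.
Bard1, chr1:71103163-71103192, minus strand: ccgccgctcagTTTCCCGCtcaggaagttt
Brca2, chr5:150522442-150522471, plus strand: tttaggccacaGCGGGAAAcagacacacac
Rad51c, chr11:87404477-87404506, minus strand: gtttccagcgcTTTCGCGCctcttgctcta
Rad51c, chr11:87404941-87404970, minus strand: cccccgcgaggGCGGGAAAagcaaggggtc

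The Bard1 match begins at position -209 from the start, the Brca2 match at -168 and the Rad51c matches at 12 and -5, each from its own start, as Rad51c has more than 1. Blm, which rose at 1 of its probes, and Rad54l had no E2F letters in their windows. CCAAT was found in Blm, Rad54l, Rad51ap1 and Brca1 and in 37.4% of all promoters, the cell cycle homology letters TTTGAA or TTCGAA in Bard1 alone and in 19.2% of all promoters, and the NRF1 letters GCATGCGC in none of the 7 and in 2.71% of all. A match describes the sequence only, and no match says only that these letters are not in the window.

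Among the other genes of the pathway, Fignl1 alone passed 1.6-fold against parental MEFs. Of 45 further homologous recombination genes listed from their known roles, 33 were on the array and 21 were analysed, 20 of them detected on all 4 arrays. The product of Fignl1 is an ATPase with a role in recombination. Fignl1 read 79.3 units in parental MEFs, 142 in Rb-deleted, 94.2 in WT Rb-HA and 121 in ΔCdk Rb-HA MEFs. It thus rose 2.17-fold with Rb deleted and 1.80-fold with ΔCdk Rb-HA. With WT Rb-HA it was 1.73-fold below Rb-deleted MEFs. Without background correction the rise with Rb deleted still passed 1.6-fold, at 0.86 on the log2 scale, and the differences of 0.63 with ΔCdk Rb-HA and -0.62 between WT Rb-HA and Rb-deleted MEFs did not. The median log2 difference of the 21 genes from parental was 0.19, 0.05 and 0.02 on the TAT-Cre arrays, against 0.02, 0.01 and -0.01 over all genes. The corresponding medians of the 7 members with a value were 0.64, 0.34 and 0.49, which the detection filter pushes upward.

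Against Rb-deleted MEFs, 2 of the 21 were lower by more than 1.6-fold with ΔCdk Rb-HA, where 1.95% of all genes were. The median log2 difference of the 21 was -0.19 there, against -0.03 over all genes. Recql5, a helicase of the RecQ family, read 77.7 units in Rb-deleted and 56.3 in ΔCdk Rb-HA MEFs, a 1.69-fold difference. Top3a, the topoisomerase partner of BLM, read 83.0 and 60.8 units, a 1.63-fold difference. Both calls ended without background correction, at log2 differences of -0.48 for Recql5 and -0.47 for Top3a. Both genes were near the detection limit, and neither passed 1.6-fold against parental MEFs in any condition.

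Genes of end joining, the pathway that ligates ends without a template, were compared as well. Of 10 analysed, Parp1, the poly(ADP-ribose) polymerase that marks breaks, rose 2.01-fold in Rb-deleted MEFs, from 334 to 626 units, and read 394 in WT Rb-HA and 371 in ΔCdk Rb-HA MEFs. Against Rb-deleted MEFs it was 1.61-fold lower with WT Rb-HA and 1.68-fold lower with ΔCdk Rb-HA. The Parp1 probe at position 3258 gave 1.15 after Rb deletion, then -0.60 with WT Rb-HA and -0.77 with ΔCdk Rb-HA against Rb-deleted MEFs, and the dim probe at 2264 gave -0.13 and -0.34 in the last 2 comparisons, on the log2 scale. The fall with WT Rb-HA thus passed 1.6-fold at 1 of 3 probes, and at that probe it was -0.66 without background correction, short of 1.6-fold. Xrcc1, the scaffold of single-strand break repair, was 1.68-fold lower with ΔCdk Rb-HA against the same array, a call that ended without background correction, at -0.65. Of 12 analysed genes of break and fork signalling, Timeless rose 2.36-fold and its partner Tipin 1.89-fold in Rb-deleted MEFs, and 1.88-fold and 1.64-fold with ΔCdk Rb-HA. Timeless was 1.66-fold lower in WT Rb-HA than in Rb-deleted MEFs. Without background correction both genes still passed 1.6-fold with Rb deleted, but the ΔCdk Rb-HA differences, 0.64 for Timeless and 0.67 for Tipin, and that of Timeless between WT Rb-HA and Rb-deleted MEFs, -0.56, did not. For Tipin this is the probe at position 791, and the probes at 20, 194 and 820, near the detection limit, differed by 0.46, 0.46 and 0.08 on the log2 scale after Rb deletion, short of 1.6-fold. No other gene of either list passed 1.6-fold.

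Known G1/S genes were listed as a reference for E2F-driven transcription. Of 18 analysed, 16 rose past 1.6-fold with Rb deleted, 10 with WT Rb-HA and 16 with ΔCdk Rb-HA. Of all genes, 2.14%, 0.888% and 2.58% did. The median log2 differences of the G1/S genes from parental were 1.32, 0.71 and 1.20. In WT Rb-HA MEFs 12 of the 18 were lower than in Rb-deleted MEFs by that much, where 0.484% of all genes were. In ΔCdk Rb-HA MEFs 3 were, where 1.95% of all genes were. The G1/S genes move with every comparison in which Rad51c, Rad54l and Blm differed, and their part in those differences was not tested.

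**Figure D4:**
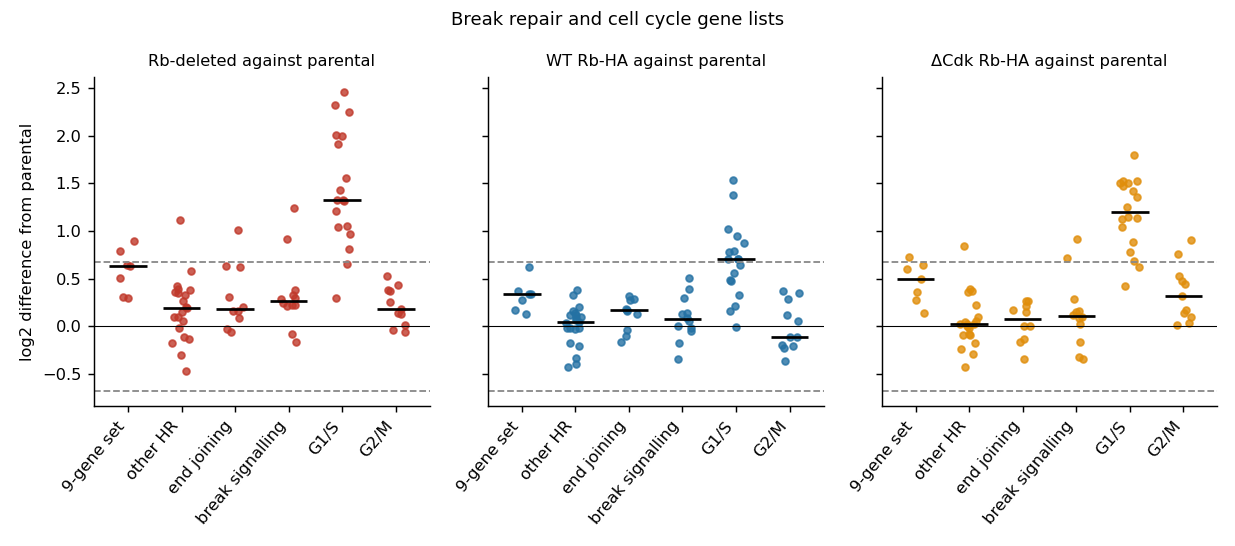
Log2 difference from parental MEFs (vertical axis, same scale in all panels) of each analysed gene in 6 lists, with 1 panel for each TAT-Cre array, 1 point per gene, a bar at each list's median and dashed lines at 1.6-fold. The 9-gene set holds the 7 genes with a value, with medians of 0.64, 0.34 and 0.49. The G1/S genes lie highest in every panel, with medians of 1.32, 0.71 and 1.20.

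Blm and Rad50 were the only members detected on all 4 arrays, and the genes whose log2 values over the 4 arrays ran most like their mean were named by the smallest distance among 10837 genes. These were BC085271, 2410018G20Rik, Sf3b5, Bax and 2810032E02Rik, at distances of 0.033 to 0.046 log2 units. Sf3b5 encodes a splicing factor subunit and Bax a pro-apoptotic protein. With 4 arrays such likeness is a description only. Blm and Rad50 themselves each lay 0.23 from their mean, as Blm differed more between parental and the other arrays than Rad50 did.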

How the data were processed

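RNA of 4 conditions was hybridised to 1 Illumina mouse BeadChip array each, and groups were taken from the sample labels. The authors deposited, for each probe and array, an average intensity on a linear scale without background correction or normalization between arrays, with its bead standard error, its number of beads (24 to 63 for the probes described) and a detection p-value. The deposited p-value was used as the filter. The image software and annotation build are not given in the sources used here, and 40 symbols turned into dates were handled by restoring 34 through the Entrez gene number.

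From the intensities, background was corrected with limma 3.58.1 in R 4.3.3 (normexp from the detection p-values, offset 16), followed by quantile normalization and log2. Genes with a probe at a detection p-value below 0.01 on 1 or more arrays were analysed (12616), each by its brightest probe. Python 3.11.15, numpy 2.4.6 and pandas 2.3.3 did the rest. A change of 1.6-fold counted as a rise or fall. Bead standard errors were carried through each array's mapping to log2 and cover bead spread only. With 1 array per condition, the number of arrays limits the precision. For a probe undetected on 1 array of a pair, the fold was bounded with the higher of the probe's own value and the lowest detected value there. The steps were tested on simulated data for Rb-deleted against parental (12482 genes). There 86 of 100 genes raised 2-fold and 75 of 100 lowered 2-fold were called, with 171 of 12282 unchanged genes past 1.6-fold. The changed genes were drawn from those with a single probe, detected in parental MEFs, and the noise was that of beads and background. These rates therefore do not cover genes undetected in parental MEFs, probes that disagree or differences between cultures.

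The members and lists were chosen with earlier results of these data known. Named genes were all probes of the 9 members, Rb1, genes of the repair lists past 1.6-fold (at most 8 a list) and the 5 of nearest pattern. Alternatives changed the background correction and offset, the normalization, the filter, the probe per gene and the threshold.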

Additional observations from a re-analysis of the deposited data

How the results depend on the processing

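Counts were recomputed under 13 alternatives, and medians and single differences under the 9 or 10 that change the values. Under these, no difference past 1.6-fold of a homologous recombination or named list gene and no median of the 9-gene set changed sign. Smaller differences that did were Blm in WT Rb-HA MEFs against parental (-0.10 with the probe of lowest detection p-value), Xrcc2 in ΔCdk Rb-HA against Rb-deleted MEFs (0.13 with the mean of detected probes) and Rad50 between the arrays with retroviral Rb (-0.02 to 0.01). The number of homologous recombination genes past 1.6-fold in Rb-deleted MEFs, 2 as reported, was 0 without background correction (with or without an offset of 16), with an offset of 50 and at 2-fold, 1 with genes detected on all 4 arrays (Blm), with the mean of detected probes and with the probe of lowest detection p-value, and 4 at 1.5-fold. The number in ΔCdk Rb-HA MEFs, 1 as reported, was 0 without background correction (with or without an offset of 16), with an offset of 50, with median scaling, with the mean of detected probes, with the probe of lowest detection p-value and at 2-fold, and 3 at 1.5-fold. The number in WT Rb-HA MEFs, 0 as reported, was 1 at 1.5-fold. The medians of the 9-gene set against parental, 0.64, 0.34 and 0.49 in the order Rb-deleted, WT Rb-HA, ΔCdk Rb-HA, were 0.38, 0.20 and 0.29 without background correction, 0.30, 0.15 and 0.23 without it and with an offset of 16, and 0.33, 0.16 and 0.25 with an offset of 50. The last 2 settings also ended each call of a named list gene that ended without background correction. With the mean of detected probes, the calls of Parp1 in both comparisons against Rb-deleted MEFs and of Tipin in both against parental ended, and that of Tipin with ΔCdk Rb-HA also ended with median scaling. Leaving out the background correction or using an offset of 50 shrinks differences of dim probes by construction. Median scaling does not. The mean of detected probes averages bright probes with dim ones, such as those of Tipin at 20, 194 and 820 and of Parp1 at 2264. Whether this ended those calls was not tested. Over all genes, the numbers past 1.6-fold either way against parental were, in the order Rb-deleted, WT Rb-HA, ΔCdk Rb-HA, 646, 422 and 741, and 386, 250 and 435 without background correction, 313, 206 and 370 with an offset of 16 in its place, 339, 220 and 385 with an offset of 50, and 225, 168 and 258 at 2-fold. At 1.5-fold they were 984, 677 and 1072. No paired analysis was possible because each condition had 1 array, and for the same reason no replicate could be left out.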

Other observations

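Further groups of genes that bear on how cells with breaks progress were described in the same way. Of 17 analysed p53 targets, none passed 1.6-fold in any of the 6 comparisons, and their median log2 differences from parental were 0.06, 0.01 and -0.11 in the order Rb-deleted, WT Rb-HA, ΔCdk Rb-HA. Of 11 analysed G2/M genes, 0 rose in Rb-deleted, 0 in WT Rb-HA and 2 in ΔCdk Rb-HA MEFs. Of all genes, 2.14%, 0.888% and 2.58% did. The G2/M medians were 0.19, -0.11 and 0.31. Of 8 analysed cohesin genes, whose ring holds the sister chromatids that recombination copies from, Rad21 fell 1.69-fold in WT Rb-HA MEFs, reading 111 units in parental, 89.7 in Rb-deleted, 76.3 in WT Rb-HA and 81.7 in ΔCdk Rb-HA MEFs, and this call ended without background correction, at -0.55 on the log2 scale. The cohesin medians were 0.03, -0.20 and -0.02.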
